A study of Mus musculus with 18 samples.

Results

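The nuclear genes of oxidative phosphorylation (OXPHOS) were taken as the protein-coding genes of the count table whose symbols begin with Nduf followed by a, b, c, s or v, with Uqcr, with Atp5, or with Cox and a digit from 4 to 8, plus *Sdha*, *Sdhb*, *Sdhc* and *Sdhd*. The rule used no measured value and took 93 of the 47729 genes in the table, of which 21697 were protein-coding. By respiratory complex, 46 of these genes were assigned to complex I, 4 to complex II, 8 to complex III, 18 to complex IV and 17 to complex V. The assignment followed the symbols, so *Ndufa4*, now regarded as a complex IV subunit, and its relative *Ndufa4l2* are counted with complex I. Of the complex I genes, 8 encode assembly factors that help to build the complex and are not part of the finished enzyme. Another 11 genes fit the symbol pattern but are annotated as pseudogenes and were not counted. *Cyc1*, a complex III subunit, and the assembly factors with other symbols fall outside the pattern and are given with the neighbouring pathways.

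The data were RNA-seq counts per gene from mouse colon, with 3 libraries in each of 3 groups. Control WT mice (libraries R1 to R3) carried the treatment label "Control". AOM-DSS WT mice (R4 to R6) and AOM-DSS *Cldn2*TG mice (R7 to R9) were given 1 dose of the carcinogen azoxymethane (AOM, 10 mg/kg) and 3 cycles of the colitis-inducing polymer dextran sulfate sodium (DSS, 2.5%), a model of colitis-associated cancer. The *Cldn2*TG mice carry a *Cldn2* transgene under the villin promoter, which is active in the intestinal epithelium, and the study's methods give a C57BL/6 background for all lines. The protocol text names AOM and DSS for every sample, controls included, so the groups here follow the treatment label. Age is not given in the sources used here, and there was no untreated *Cldn2*TG group, so the effect of the transgene without treatment could not be measured. Each library had been read in 2 lanes, which were added up to between 14142711 (R6) and 22262546 (R5) counts. By library size alone, 3 counts at these depths correspond to between 0.135 and 0.212 counts scaled to a common library size (CPM). This range was taken as the floor for counting error. Other CPM values here also carry TMM scaling between libraries, by which 3 counts in R6 are 0.204 CPM.

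Oxidative phosphorylation takes place in the inner mitochondrial membrane, where complexes I to IV pass electrons from NADH and succinate to oxygen while protons are pumped out, and complex V (ATP synthase) uses the proton gradient to make ATP. Most subunits are encoded in the nucleus, made in the cytosol and imported, and they assemble with a small set of subunits encoded by the mitochondrial genome. Colonocytes oxidize butyrate made by gut bacteria for much of their energy, and the absorptive cells of the colon surface are rich in mitochondria.

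*Cldn2* was read first as a check of the labels. It stood at 192, 258 and 243 CPM in control WT, 122, 136 and 134 in AOM-DSS WT, and 209, 217 and 249 in AOM-DSS *Cldn2*TG (mean ± SD 231 ± 34.9, 131 ± 7.78 and 225 ± 21.2 CPM, n = 3). Values within each group follow library order here and throughout. All 3 transgenic libraries were above all 3 AOM-DSS WT libraries (log2 fold change 0.78, SE 0.12, adjusted p = 0.0103), while they overlapped the control WT libraries (-0.03, SE 0.12, adjusted p = 0.897). Between AOM-DSS WT and control WT, *Cldn2* fell by 0.82 on the log2 scale (SE 0.14, adjusted p = 0.0138). The call against control WT was lost without R2 or R3 and the call against AOM-DSS WT without R8 or R9, with adjusted p running 0.00797 to 0.0635 and 0.00428 to 0.0597 over the fits that left out 1 library. Reads of the transgene and of the endogenous gene are not told apart in these counts. R1 differed from the other libraries in *Xist*, the RNA of the inactive X chromosome, with 215 CPM against at most 0.204 CPM in the other 8, and 3 OXPHOS genes (*Ndufa1*, *Ndufb11* and *Cox7b*) lie on the X chromosome. The study's methods call the mice matched for sex, whereas *Xist* RNA sets R1 apart, and the control WT group may mix sexes.

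The tissue label was checked on 6 colon genes, led by *Lgals4*, whose CPM summed to 10337, 9352 and 8697 in control WT, 12949, 8890 and 7711 in AOM-DSS WT, and 9483, 11395 and 12577 in AOM-DSS *Cldn2*TG. None of the 6 was at 0 in all libraries. The 8 general epithelial genes, led by *Krt8*, summed to between 15967 (R1) and 20664.5 (R9) CPM. Skeletal muscle markers were low in every library: the 10 genes summed to between 7.54 and 18.4 CPM, *Acta1* had the most reads, *Myh4* was at 0, and *Myh1* and *Tnnc2* never passed 3 counts.

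OXPHOS transcripts were among the abundant RNAs of the colon. The 93 genes together took between 1.90% (R5) and 2.53% (R8) of all counts. Compared per kilobase of exon, the scale used here for levels between OXPHOS genes, the 9-library mean was highest for *Cox8a* of complex IV at 1244 CPM per kb. The most abundant genes of the other complexes were *Atp5a1* (complex V, 615 CPM per kb), *Ndufa6* (complex I, 560.4), *Uqcr10* (complex III, 516) and *Sdhd* (complex II, 342). Medians over the genes of a complex were 67.3 CPM per kb for complex I, 127 for complex II, 202 for complex III, 122 for complex IV and 163 for complex V. Within complex I, the 7 core subunits that carry the electron path had a median of 102 CPM per kb, the 31 other subunits 75.4 and the 8 assembly factors 10.8. The lowest of the expressed genes were tissue-restricted isoforms, such as *Ndufa4l2* at 0.590 CPM per kb. Lengths were the summed exons of all annotated transcripts, which lowers the per-kilobase level of genes with long alternative ends such as *Ndufs1*. In the lists of other genes, the gene named as having the most reads or as leading the list has the highest mean CPM, with no allowance for length.

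The libraries differed in OXPHOS RNA even within groups. Summed over the 93 genes, the level was 23416.5, 23084 and 21917 CPM in control WT, 22537, 18563 and 20572 CPM in AOM-DSS WT, and 23983, 26232 and 26180.3 CPM in AOM-DSS *Cldn2*TG (mean ± SD 22806 ± 788, 20557 ± 1987 and 25465 ± 1284, n = 3). Every transgenic library was above every other library, while R4 of AOM-DSS WT lay inside the control WT range and R5 was the lowest of the 9. Among the 87 genes tested in all comparisons, R5 had the lowest of the 9 values for 70. R4 was the highest of its group for 62 and R7 the lowest of its group for 68. As log2 ratios to the control WT mean, the medians over these genes were 0.07 in R4, -0.30 in R5 and -0.05 in R6, against 0.08 in R7, 0.22 in R8 and 0.23 in R9. Over all 14480 genes tested in every comparison the same medians lay between -0.02 and 0.00. By group means, 44 of the 87 genes were ordered *Cldn2*TG, control WT, AOM-DSS WT from high to low and 27 were ordered *Cldn2*TG, AOM-DSS WT, control WT. Another 13 were highest in control WT and lowest in AOM-DSS WT, and 3 were highest in AOM-DSS WT and lowest in control WT. Colon pieces hold many cell types, so fewer cells of a type and less RNA per cell cannot be told apart in these bulk samples.

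**Figure D1:**
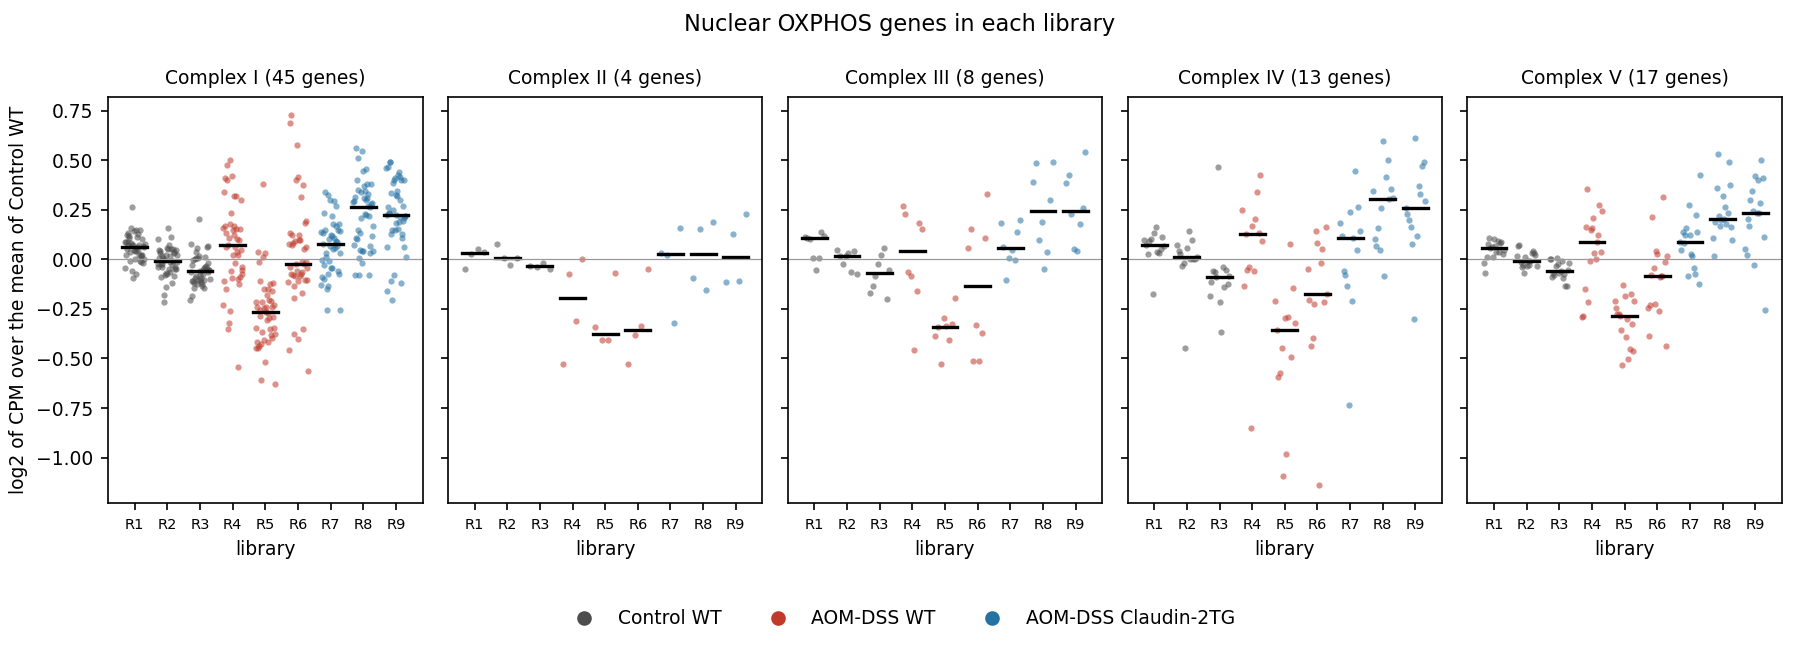
Levels of OXPHOS genes in each library, as log2 of CPM over the control WT mean (y axis) for libraries R1 to R9 (x axis), with 1 panel per complex, dots for single genes and a bar at the median. Over the 87 genes of the 5 panels the medians were lowest in R5 (-0.30) and highest in R8 and R9 (0.22 and 0.23).

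The first comparison, AOM-DSS WT against control WT, asked how the colon changed after AOM and DSS in mice without the transgene. Of 88 OXPHOS genes tested, 4 fell: *Ndufs1* and *Ndufa9* of complex I, *Sdha* of complex II and *Uqcrc2* of complex III. The complex I assembly factor *Ndufaf4* was the single gene that rose. No complex IV or complex V gene was called by edgeR. Log2 fold changes were below 0 for 55 of the 88 genes, with a median of -0.10 against 0.02 over all 15437 genes tested.

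Calls were made by edgeR (quasi-likelihood F test) at an adjusted p under 0.05, with the adjustment taken over every gene that passed the filter. Over all genes 15.0% were called, 8.04% higher and 6.92% lower, beside 1 higher and 4 lower calls among the 88 OXPHOS genes. The difference between these shares was not tested. At an unadjusted p under 0.05 the OXPHOS genes gave 2 higher and 10 lower (all genes 17.0% and 15.6%), and DESeq2 called 1 higher and 8 lower (all genes 11.3% and 9.51%), adding *Ndufa10*, *Sdhc*, *Atp5a1* and *Atp5b* to the genes above. The groups did not overlap for 1 gene that was higher and 16 that were lower in AOM-DSS WT, against 18.9% and 19.1% of all genes. Positive fold changes made up 33 of the 88, against 52.0% of all genes. For each gene whose groups do not overlap, a two-sided exact permutation test gives p = 0.1, the smallest p that 3 libraries against 3 allow. All p-values here measure the spread between these samples.

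The calls depended on single libraries. Without R4 the count went from 5 to 16 of 88 (1 higher and 15 lower), and the added genes included *Ndufa10*, *Sdhb*, *Sdhc*, *Uqcrfs1* and *Cox7a1*. Calls over all genes went from 2310 (15.0%) to 4080 (25.7%) without R4 and to 1245 (7.90%) without R5. Without R5 only *Sdha* and *Uqcrc2* were called, the median went to -0.01, that of complex I changed sign to 0.03, and 43 of 88 fold changes were positive. Without R1, R2, R3 or R6 edgeR called 0 of them, while calls over all genes went from 2310 to 631, 135, 404 and 1062 in the same order.

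In complex I, *Ndufs1*, the large iron-sulfur subunit of the electron-entry arm, stood at 160.1, 160.2 and 163 CPM in control WT, 110.3, 124 and 126 in AOM-DSS WT, and 172, 153 and 148 in AOM-DSS *Cldn2*TG. The AOM-DSS WT libraries were all below the other 6, and *Ndufs1* fell by 0.42 on the log2 scale (SE 0.10, adjusted p = 0.0346; over the fits without 1 library 0.0325 to 0.109, called only without R4). *Ndufa9*, an accessory subunit near the quinone site, showed the same order of groups with 173, 175 and 175 CPM in control WT, 137, 129.5 and 134 in AOM-DSS WT, and 176, 165 and 162 in AOM-DSS *Cldn2*TG. Its control WT libraries spread little (mean ± SD 174 ± 1.16 CPM, n = 3), and it fell by 0.38 (SE 0.09, adjusted p = 0.0332; 0.0237 to 0.118, called only without R4, and lost with lane 2 only). The genes lie at chr1:63143596-63176833 and chr6:126821721-126849136, both on the minus strand of GRCm38.

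*Ndufaf4*, an assembly factor of complex I, went the other way, with 26.6, 24.0 and 25.4 CPM in control WT, 35.9, 32.9 and 33.4 in AOM-DSS WT, and 31.7, 29.3 and 33.5 in AOM-DSS *Cldn2*TG. All 3 AOM-DSS WT libraries were above the control WT libraries, and the gene rose by 0.43 (SE 0.11, adjusted p = 0.0350; 0.0401 to 0.144, called only without R4, and lost with lane 2 only or with no filter on low counts). It lies at chr4:24898083-24905001 on the plus strand. The other 2 complex I genes with the smallest p among those higher in AOM-DSS WT were not called. *Ndufa2*, an accessory subunit of the matrix arm, had 145, 137 and 117 CPM in control WT, 176, 137 and 214 in AOM-DSS WT, and 146, 196 and 183 in AOM-DSS *Cldn2*TG, with R4 and R6 high and R5 inside the control range (log2 fold change 0.41, SE 0.17, adjusted p = 0.145). *Ndufaf8*, another assembly factor, had 26.9, 23.2 and 23.2 CPM in control WT, 32.7, 24.9 and 32.5 in AOM-DSS WT, and 30.0, 33.2 and 30.5 in AOM-DSS *Cldn2*TG, again with R4 and R6 high (log2 fold change 0.30, SE 0.14, adjusted p = 0.185).

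The other complex I genes were not called by edgeR. Of the 46 tested, 19 had positive and 27 negative fold changes, with a median of -0.08 (core subunits -0.10, other subunits -0.06, assembly factors -0.01). The catalytic core subunit *Ndufv1*, which binds NADH, had a log2 fold change of -0.10 (SE 0.10, adjusted p = 0.542). *Ndufa10*, an accessory subunit of the membrane arm, was at 198, 198 and 215 CPM in control WT, 174, 149 and 148 in AOM-DSS WT, and 186, 214 and 182 in AOM-DSS *Cldn2*TG, so that the AOM-DSS WT libraries were all below control WT with a log2 fold change of -0.37 (SE 0.11, adjusted p = 0.0550), and DESeq2 and the edgeR fit with all 9 libraries called it lower. *Ndufa12* and *Ndufs5* were also lower without overlap of the groups, at log2 fold changes of -0.17 and -0.19, and were not called.

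Complex II, which oxidizes succinate and is shared with the tricarboxylic acid (TCA) cycle, had all 4 fold changes below 0, with a median of -0.31. *Sdha*, its flavoprotein subunit that holds the succinate site, had 504, 549 and 509 CPM in control WT, 362, 410.4 and 361 in AOM-DSS WT, and 532, 488 and 481 in AOM-DSS *Cldn2*TG. The 3 AOM-DSS WT libraries were the lowest of the 9, and *Sdha* fell by 0.46, or 1.37-fold (SE 0.11, adjusted p = 0.0350; 0.0307 to 0.131, called without R4 or R5 and not without R1, R2, R3 or R6). It lies at chr13:74322254-74350280 on the minus strand. The iron-sulfur subunit gene *Sdhb* stood at 316, 312 and 302 CPM in control WT, 294, 233 and 238 in AOM-DSS WT, and 315, 344 and 339 in AOM-DSS *Cldn2*TG, and the membrane anchor gene *Sdhc* at 303, 287 and 289 CPM in control WT, 236, 221 and 232 in AOM-DSS WT, and 235, 264 and 272 in AOM-DSS *Cldn2*TG. Both were below control WT in all 3 libraries, with log2 fold changes of -0.28 (SE 0.12, adjusted p = 0.154) and -0.35 (SE 0.10, adjusted p = 0.0514). Neither was called by edgeR, while DESeq2 and the edgeR fit with all 9 libraries called *Sdhc* lower. The other anchor gene, *Sdhd*, overlapped control WT at 435, 427 and 409.8 CPM in control WT, 424, 404 and 409.6 in AOM-DSS WT, and 473, 482 and 496 in AOM-DSS *Cldn2*TG (log2 fold change -0.03, SE 0.10, adjusted p = 0.841).

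Complex III passes electrons from ubiquinol to cytochrome c. *Uqcrc2*, its core protein 2, stood at 456, 484 and 479.9 CPM in control WT, 345, 375 and 332 in AOM-DSS WT, and 489.8, 458 and 487 in AOM-DSS *Cldn2*TG. Again the AOM-DSS WT libraries were the lowest 3, and *Uqcrc2* fell by 0.43 (SE 0.11, adjusted p = 0.0370; 0.0308 to 0.131, called without R4 or R5 and not without R1, R2, R3 or R6). It lies at chr7:120635176-120659524 on the plus strand, and 19.7% of its exon bases overlap *Pdzd9* on the other strand, so its count is uncertain by that gene's reads. Core protein 1, *Uqcrc1*, had 597, 599.7 and 585 CPM in control WT, 559.9, 483 and 473 in AOM-DSS WT, and 597, 677 and 615 in AOM-DSS *Cldn2*TG, and the Rieske iron-sulfur subunit gene *Uqcrfs1* had 345, 329 and 357 CPM in control WT, 308, 259 and 266 in AOM-DSS WT, and 342, 353 and 389 in AOM-DSS *Cldn2*TG. Both were lower in every AOM-DSS WT library than in any control (log2 fold changes -0.23, SE 0.11, adjusted p = 0.200, and -0.30, SE 0.11, adjusted p = 0.103) and were not called. The small subunit gene *Uqcr10*, at 299.9, 287 and 247 CPM in control WT, 334, 212 and 289 in AOM-DSS WT, and 315, 364 and 362 in AOM-DSS *Cldn2*TG, overlapped (log2 fold change 0.01, SE 0.17, adjusted p = 0.983), and over the 8 genes 4 were higher and 4 lower, with a median of -0.11.

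Complex IV, cytochrome c oxidase, had 4 positive and 9 negative fold changes among 13 genes tested, with a median of -0.17 and 0 calls (edgeR), 0 at an unadjusted p under 0.05 and 0 by DESeq2. *Cox5a*, a subunit on the matrix side, was the single tested gene whose groups did not overlap, at 358, 351 and 315 CPM in control WT, 310.5, 266 and 296 in AOM-DSS WT, and 370.3, 366 and 399.7 in AOM-DSS *Cldn2*TG (log2 fold change -0.23, SE 0.11, adjusted p = 0.208). Of its exon bases 38.7% overlap a gene on the other strand, so its count is uncertain. The farthest below 0 was *Cox7a1*, an isoform best known from heart and skeletal muscle, at 71.0, 69.9 and 49.2 CPM in control WT, 60.8, 32.1 and 28.8 in AOM-DSS WT, and 54.9, 59.8 and 68.7 in AOM-DSS *Cldn2*TG. R5 and R6 were lowest and R4 lay inside the control range, with a log2 fold change of -0.64 (SE 0.29, adjusted p = 0.174). Without R4 it was called, at the lowest adjusted p of its refits (range 0.00547 to 0.381).

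Complex V had 6 positive and 11 negative fold changes among 17 genes, a median of -0.12 and 0 calls by edgeR, with 1 gene lower at an unadjusted p under 0.05 (*Atp5b*). DESeq2 called the genes of the catalytic alpha and beta subunits lower. *Atp5b*, the beta subunit, stood at 2400.2, 2639 and 2525 CPM in control WT, 2066, 2125 and 1931 in AOM-DSS WT, and 2605, 2549 and 2559.9 in AOM-DSS *Cldn2*TG, and *Atp5a1*, the alpha subunit, at 1969.6, 2017 and 1994 CPM in control WT, 1629, 1723 and 1682 in AOM-DSS WT, and 2121, 2145 and 2065 in AOM-DSS *Cldn2*TG. In each case the 3 AOM-DSS WT libraries were the lowest of the 9, with log2 fold changes of -0.30 (SE 0.12, adjusted p = 0.119) and -0.24 (SE 0.11, adjusted p = 0.169). *Atpif1*, which encodes the inhibitor of the enzyme's reverse reaction and falls outside the symbol rule, was at 133, 109 and 115 CPM in control WT, 137, 108 and 151 in AOM-DSS WT, and 127, 156 and 162 in AOM-DSS *Cldn2*TG with overlapping groups (log2 fold change 0.15, SE 0.15, adjusted p = 0.511).

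The second comparison, AOM-DSS *Cldn2*TG against AOM-DSS WT, asked how the transgenic colon differed from the WT colon after the same treatment. OXPHOS RNA stood higher in the transgenic colon for 84 of the 87 genes tested, but the differences were small. The edgeR fit on the 6 libraries called 0 genes, whereas DESeq2 called 9 and edgeR with all 9 libraries in the fit called 12. Of all genes, in both directions, these fits called 9.54%, 13.9% and 13.6%. The median log2 fold change was 0.29 against 0.01 over all 14888 genes tested. By complex the medians were 0.22 for complex I, 0.31 for complex II, 0.32 for complex III, 0.34 for complex IV and 0.31 for complex V. The 3 genes below 0 were *Ndufa2*, *Ndufa4* and *Ndufaf4*.

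By edgeR 0 of 87 genes were called in either direction, where 9.54% of all genes were called, 2.19% higher and 7.35% lower. At an unadjusted p under 0.05 the counts were 29 higher and 0 lower, against 8.84% and 14.7% of all genes. DESeq2 called 9 higher (*Ndufs1*, *Sdha*, *Uqcrc2*, *Cox5a*, *Cox6c*, *Atp5a1*, *Atp5b*, *Atp5c1* and *Atp5f1*) and 0 lower, against 3.95% and 9.97%. In 28 genes every transgenic library was above every AOM-DSS WT library and in 0 the reverse held, against 12.8% and 15.2% of all genes. Positive fold changes made up 51.1% of all genes. Scaling by library size alone moved the all-gene median to -0.09 and the OXPHOS median to 0.18, with 79 of 87 still positive.

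A single library decided the count here as well. Without R4 edgeR called 20 of 89 genes higher, *Atp5c1*, *Cox5a*, *Cox6c* and *Cox7a1* among them, and the median was 0.36. Calls over all genes, in both directions, went from 1421 (9.54%) to 2894 (19.2%) in that fit. Leaving out R5, R6, R7, R8 or R9 gave 0 calls, with medians between 0.17 (without R5) and 0.34 (without R7). Calls over all genes then went to 555, 805, 460, 58 and 108 in the same order. With the control WT libraries kept in the fit for the estimate of the spread, 12 of 89 genes were called, all higher. That fit called 13.6% of all genes, in both directions.

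The 3 genes with the smallest p were *Uqcrc2*, *Atp5c1* and *Atp5f1*. *Uqcrc2* in the transgenic libraries was above AOM-DSS WT throughout, with a log2 fold change of 0.45 (SE 0.12, adjusted p = 0.0503). Its adjusted p ran 0.0456 to 0.155 over the fits without 1 library and was under the threshold only without R4. *Atp5c1*, the gamma subunit of the ATP synthase rotor, stood at 548, 571 and 509.8 CPM in control WT, 490, 448 and 464 in AOM-DSS WT, and 598, 618 and 624 in AOM-DSS *Cldn2*TG (log2 fold change 0.39, SE 0.11, adjusted p = 0.0669). *Atp5f1*, the b subunit of its outer stalk, stood at 362, 341 and 340.3 CPM in control WT, 299.6, 272 and 338 in AOM-DSS WT, and 388, 404 and 441 in AOM-DSS *Cldn2*TG (log2 fold change 0.44, SE 0.13, adjusted p = 0.0695). For both, the lowest transgenic library was above the highest AOM-DSS WT library and also above the highest control WT library.

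The genes that fell in AOM-DSS WT were near their control level in the transgenic libraries. *Sdha* averaged 521 ± 24.9 CPM in control WT, 378 ± 28.4 in AOM-DSS WT and 500.2 ± 28.0 in AOM-DSS *Cldn2*TG (mean ± SD, n = 3). Its log2 fold change between the treated groups was 0.40 (SE 0.12, adjusted p = 0.0791) with no overlap, and against control WT it was -0.05 (SE 0.09, adjusted p = 0.756). For *Ndufs1* the corresponding fold changes were 0.39 (SE 0.12, adjusted p = 0.0821) and -0.02 (SE 0.09, adjusted p = 0.895), for *Ndufa9* 0.33 (SE 0.11, adjusted p = 0.0988) and -0.05 (SE 0.09, adjusted p = 0.745), and *Uqcrc2* stood 0.02 from control WT (adjusted p = 0.899). All 3 comparisons share libraries, so these values are not independent of one another, and a p over the threshold does not show equal levels.

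Across complex I as a whole, 42 of 45 genes tested were positive, 15 without overlap of the groups (12.8% of all genes). *Ndufv1*, at 249, 258 and 239.8 CPM in control WT, 240.1, 212 and 242 in AOM-DSS WT, and 275, 303 and 289.9 in AOM-DSS *Cldn2*TG, was higher in every transgenic library than in any other library. Its log2 fold change was 0.32 (SE 0.12, adjusted p = 0.127). *Ndufa5*, an accessory subunit of the matrix arm, had the largest value of the complex at 0.44 (SE 0.16, adjusted p = 0.133). *Ndufa4*, now regarded as a complex IV subunit but counted here with complex I, was lowest at -0.16 (SE 0.23, adjusted p = 0.772). It stood at 150.3, 133 and 141 CPM in control WT, 128, 140.3 and 234 in AOM-DSS WT, and 132, 152 and 166 in AOM-DSS *Cldn2*TG, so that R6 alone stood apart. *Ndufaf4* was at -0.12 (SE 0.12, adjusted p = 0.662) and overlapped.

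In complexes II and III all 12 genes were positive. *Sdhb* and *Sdhd* did not overlap (0.38, SE 0.13, adjusted p = 0.110, and 0.23, SE 0.11, adjusted p = 0.266), and nor did *Uqcrc1* and *Uqcrfs1* (0.32, SE 0.13, adjusted p = 0.170, and 0.38, SE 0.13, adjusted p = 0.0978). In complex IV all 13 were positive, and the transgenic libraries stood clear of AOM-DSS WT for *Cox5a* (0.38, SE 0.12, adjusted p = 0.0844), *Cox6c* (0.49, SE 0.16, adjusted p = 0.10) and *Cox8a*, which had 687, 661 and 616 CPM in control WT, 698, 523 and 581 in AOM-DSS WT, and 723, 809.9 and 801 in AOM-DSS *Cldn2*TG (0.37, SE 0.14, adjusted p = 0.148). In complex V all 17 were positive, from 0.09 for *Atp5s*, a coupling factor that is no structural subunit, to 0.44 for *Atp5f1*. The alpha and beta subunits had 0.33 (SE 0.12, adjusted p = 0.131) and 0.33 (SE 0.12, adjusted p = 0.138), each without overlap.

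**Figure D2:**
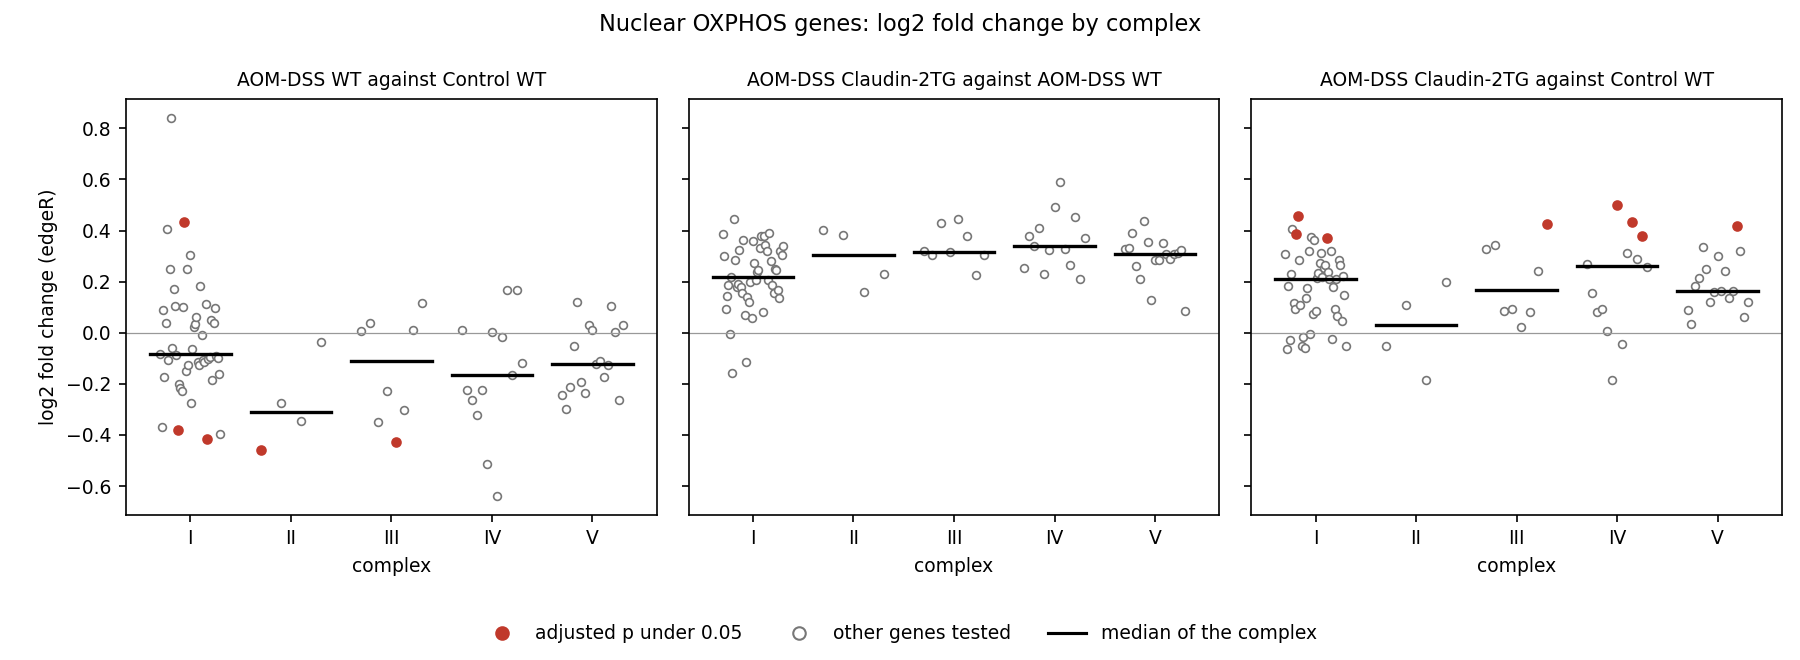
Log2 fold changes of the OXPHOS genes tested (y axis) by complex (x axis) in each of the 3 comparisons, with a dot per gene, red where the adjusted p was under 0.05, and a bar at the median; *Cox8b* (log2 fold change 3.21) is left off the dots. Red dots number 5, 0 and 8 in the order of the comparisons, and 84 of 87 dots of the second comparison lie above 0.

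The third comparison, AOM-DSS *Cldn2*TG against control WT, set the treated transgenic colon beside the control WT colon, so genotype and treatment both differ. Here 9 genes rose and 0 fell: *Ndufa5*, *Ndufa6* and *Ndufb8* of complex I, *Uqcrq* of complex III, *Cox6c*, *Cox7a2l*, *Cox7c* and *Cox8b* of complex IV, and *Atp5l* of complex V. Apart from the near-silent *Cox8b* the increases were between 0.37 and 0.50 on the log2 scale. *Cox8b* passed the filter on the counts of the transgenic libraries alone, so that a rise was the only outcome the test could give for it. Of the 88 genes tested 76 were positive, with a median of 0.19 against 0.00 over all 15013 genes.

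The 9 higher calls compare with 3.92% of all genes called higher, and the 0 lower calls with 6.07% (10.0% called in all). *Cox8b*, for which only a rise could be tested, is among the 9 and enters the other higher counts of this paragraph. At an unadjusted p under 0.05 edgeR gave 40 higher and 0 lower, against 12.2% and 13.8% of all genes. DESeq2 called 13 higher and 0 lower, against 5.30% and 6.65%, adding *Ndufa2*, *Ndufc2*, *Uqcr10* and *Cox7a2*. In 40 genes the transgenic libraries were all above control WT and in 1 (*Sdhc*) all below, against 15.0% and 16.4% of all genes. Positive values made up 50.3% of all genes. Scaling by library size alone shifted the all-gene median to -0.11 and the OXPHOS median to 0.077, and 18 of the 88 genes and the complex II median (-0.08) changed sign from positive to negative. With that scaling 58 genes were positive, and *Cox8b* and *Ndufa6* alone were called.

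Calls again rested on single libraries: without R8 edgeR called 0 genes, without R3 only *Cox8b*, without R9 only *Cox7a2l* and *Cox8b*, without R2 only *Cox7a2l*, *Cox8b* and *Ndufa6*, and without R1 only *Cox6c*, *Cox8b*, *Ndufa6* and *Uqcrq*. Without R7 16 were called, the 9 among them. Calls over all genes went from 1501 to between 525 (without R3) and 1383 (without R7). With the AOM-DSS WT libraries kept in the fit for the estimate of the spread, *Cox8b* alone was called, and *Cox7a2l*, *Cox6c*, *Ndufa6* and *Uqcrq* had adjusted p = 0.0702, 0.113, 0.126 and 0.148. That fit called 2.83% of all genes, against 10.0% on the 6 libraries. The OXPHOS median stayed between 0.15 and 0.25 when 1 library was left out.

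*Ndufa6*, an accessory subunit of complex I at the foot of its peripheral arm, stood at 292, 274 and 244 CPM in control WT, 375, 249.9 and 283 in AOM-DSS WT, and 341, 385 and 379.8 in AOM-DSS *Cldn2*TG. The transgenic libraries were above all control WT libraries, R4 reached their range, and the gene rose by 0.46 (SE 0.10, adjusted p = 0.0189; 0.0207 to 0.0796, lost without R3, R8 or R9). It lies at chr15:82350139-82354291 on the minus strand. *Ndufb8*, an accessory subunit of the membrane arm, stood at 183, 184 and 165 CPM in control WT, 197, 154 and 176 in AOM-DSS WT, and 218, 231 and 236 in AOM-DSS *Cldn2*TG, and every transgenic library was the higher of any pair with a library of another group (0.37, SE 0.09, adjusted p = 0.0287). *Ndufa5* had 84.7, 75.9 and 71.2 CPM in control WT, 80.5, 57.1 and 84.1 in AOM-DSS WT, and 90.8, 102 and 108 in AOM-DSS *Cldn2*TG, likewise with the 3 transgenic libraries on top (0.39, SE 0.11, adjusted p = 0.0457). Calls of *Ndufb8* and *Ndufa5* were lost without R1, R2, R3, R8 or R9. Of the 45 complex I genes 37 were positive, 20 without overlap (15.0% of all genes), with a median of 0.21.

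*Uqcrq*, a small subunit of complex III, stood at 238, 208 and 211 CPM in control WT, 243, 191 and 276 in AOM-DSS WT, and 251, 308 and 319 in AOM-DSS *Cldn2*TG. R6 lay within the transgenic range while the control WT libraries lay below it, and *Uqcrq* rose by 0.42 (SE 0.11, adjusted p = 0.0369; 0.0159 to 0.127, lost without R2, R3, R8 or R9). All 8 complex III genes were positive, with a median of 0.17, and *Uqcr10* was at 0.33 (SE 0.10, adjusted p = 0.0737) without overlap. Complex II divided, with *Sdhd* higher without overlap (0.20, SE 0.08, adjusted p = 0.167), *Sdhc* lower without overlap (-0.18, SE 0.09, adjusted p = 0.234) and a median of 0.03.

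In complex IV, *Cox6c*, a small membrane subunit, had 355, 337 and 279 CPM in control WT, 363, 263 and 343 in AOM-DSS WT, and 382, 489 and 494 in AOM-DSS *Cldn2*TG. R8 and R9 stood highest, R7 was above all of the control WT and AOM-DSS WT libraries, and *Cox6c* rose by 0.50, or 1.41-fold (SE 0.13, adjusted p = 0.0329; 0.0157 to 0.122, lost without R2, R3, R8 or R9). *Cox7a2l*, which encodes a factor that joins complexes III and IV into supercomplexes, had 145, 153 and 129 CPM in control WT, 180, 150.4 and 148 in AOM-DSS WT, and 194, 202 and 179 in AOM-DSS *Cldn2*TG. Its transgenic libraries cleared control WT and it rose by 0.44 (SE 0.10, adjusted p = 0.0206; 0.0318 to 0.0925, lost without R1, R3 or R8). *Cox7c*, another small subunit, had 85.1, 79.0 and 72.3 CPM in control WT, 106, 71.3 and 88.1 in AOM-DSS WT, and 94.7, 101 and 111 in AOM-DSS *Cldn2*TG (0.38, SE 0.10, adjusted p = 0.0422, lost without R1, R2, R3, R8 or R9), and a pseudogene copy of it holds 4.20% as many counts as the gene.

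*Atp5l*, the g subunit of the ATP synthase membrane part, stood at 83.5, 81.1 and 71.6 CPM in control WT, 85.6, 69.8 and 97.7 in AOM-DSS WT, and 91.8, 110.5 and 111 in AOM-DSS *Cldn2*TG. The control WT libraries were all below the transgenic ones, R6 lay inside the transgenic range, and *Atp5l* rose by 0.42 (SE 0.11, adjusted p = 0.0368; 0.0209 to 0.154, lost without R1, R2, R3, R8 or R9). Copies of *Atp5l* elsewhere in the genome hold 5.18% as many counts as the gene, so its count is uncertain by that share. All 17 complex V genes were positive, 8 without overlap (15.0% of all genes), with a median of 0.16. The inhibitor gene *Atpif1* overlapped, at a log2 fold change of 0.32 (SE 0.12, adjusted p = 0.115).

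*Cox8b*, the isoform of subunit 8 known from heart, skeletal muscle and brown fat, was almost silent, with 2, 2 and 4 reads in control WT, 10, 6 and 4 in AOM-DSS WT, and 11, 43 and 8 in AOM-DSS *Cldn2*TG. The transgenic libraries were above control WT, R8 stood far above the other 8 libraries, and R7 and R9 were near R4. The fitted log2 fold change was 3.21 (SE 0.63, adjusted p = 0.0124), at a level of 2.17 CPM in R8 and at most 0.760 CPM in the other libraries, and the call was lost without R8 (adjusted p 0.0157 to 0.0596 over the refits). It lies at chr7:140898943-140900446 on the minus strand and was too low for the test in the other comparisons. R8 was also high among the 7 adipocyte markers, which summed to 16.5, 103 and 18.2 CPM in control WT, 4.73, 25.5 and 5.03 in AOM-DSS WT, and 6.63, 70.8 and 4.83 in AOM-DSS *Cldn2*TG. *Cfd* had the most reads of them, none was at 0 throughout, and R2, with the highest sum, had 2 *Cox8b* reads. *Ucp1*, the marker of brown and beige fat among them, had 13 reads in R8 and 0 in each of the other 8 libraries. The part of fat cells in the *Cox8b* value was not tested. Skeletal muscle markers in R8, at 14.7 CPM in sum, were within the range of the other libraries.

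**Figure D3:**
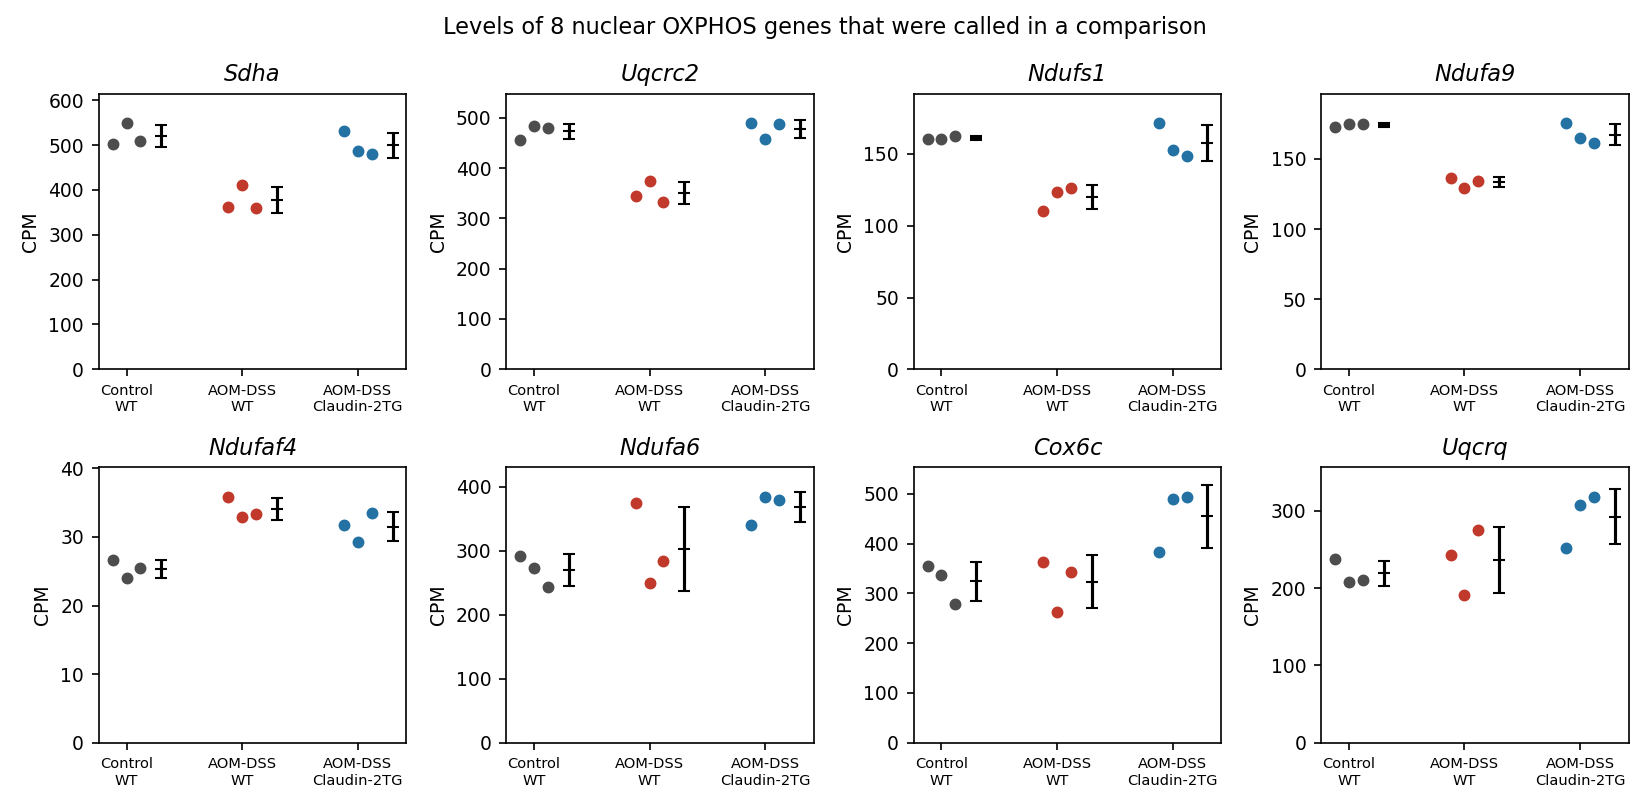
CPM (y axis, from 0) of 8 OXPHOS genes called in a comparison, by group (x axis), with a dot per library and the mean ± SD in black (n = 3). *Sdha*, *Uqcrc2*, *Ndufs1* and *Ndufa9* are lowest in AOM-DSS WT (378 ± 28.4 CPM for *Sdha*), *Ndufaf4* is lowest in control WT, and *Ndufa6*, *Cox6c* and *Uqcrq* are highest in AOM-DSS *Cldn2*TG (455 ± 63.2 CPM for *Cox6c*).

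Several subunits have a ubiquitous and a tissue-restricted isoform, and the ubiquitous one dominated in every library. Per kilobase, *Cox4i2*, the lung isoform of subunit 4, held 0.0737% of the *Cox4i1* and *Cox4i2* level on average, and *Cox6a2*, of heart and skeletal muscle, held 0.0283% of its pair. *Cox6b2*, of testis, held 0.309%, *Ndufa4l2*, known as a hypoxia-induced relative of *Ndufa4*, 0.520%, and *Cox8b* 0.113%. *Cox7b2* and *Cox8c* had no count in any library. *Cox4i2* had 8, 7 and 7 reads in control WT, 9, 8 and 4 in AOM-DSS WT, and 7, 5 and 2 in AOM-DSS *Cldn2*TG and *Cox6a2* had 13, 1 and 6 reads in control WT, 4, 1 and 2 in AOM-DSS WT, and 2, 3 and 6 in AOM-DSS *Cldn2*TG, both under the filter of every comparison. *Cox6b2* had 45, 37 and 81 reads in control WT, 27, 27 and 41 in AOM-DSS WT, and 22, 60 and 28 in AOM-DSS *Cldn2*TG, and *Ndufa4l2* had 13, 6 and 9 reads in control WT, 11, 16 and 17 in AOM-DSS WT, and 6, 11 and 5 in AOM-DSS *Cldn2*TG. *Ndufa4l2* was tested only in the first comparison, where R5 and R6 were above all of the control WT libraries and R4 was not (0.84, SE 0.45, adjusted p = 0.233). It passed the filter there on the AOM-DSS WT libraries, since its control WT counts alone were too low, so a fall could not have been tested. *Cox6b2* overlapped in all comparisons (-0.51, 0.33 and -0.18).

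*Cox7a1* was an exception to the dominance of one form. Of the summed per-kilobase level of *Cox7a1*, *Cox7a2* and *Cox7a2l*, it held 21.2%, 21.0% and 16.6% in control WT, 16.6%, 12.4% and 10.1% in AOM-DSS WT, and 15.6%, 14.6% and 17.2% in AOM-DSS *Cldn2*TG. *Cox7a2*, the ubiquitous form, held 61.0% on average and stood at 278, 271 and 263 CPM in control WT, 311, 221 and 267 in AOM-DSS WT, and 291, 361 and 349.7 in AOM-DSS *Cldn2*TG. Its transgenic libraries were above control WT (0.31, SE 0.10, adjusted p = 0.0780, called by DESeq2 and, without R7, by edgeR), and *Cox7a1* was near its control level there (-0.04, SE 0.15, adjusted p = 0.880). In the second comparison *Cox7a1* had 0.59 (SE 0.27, adjusted p = 0.244), with adjusted p 0.00155 to 0.501 over the refits and a call only without R4. Smooth muscle markers were also lowest in R5 and R6 among the WT libraries: the 8 genes, led by *Tagln*, summed to 4172, 2091 and 3090 CPM in control WT, 3103, 1097.5 and 1346 in AOM-DSS WT, and 1338, 1548 and 1007 in AOM-DSS *Cldn2*TG, with none at 0. Their part in the *Cox7a1* value was not tested.

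The 3 genes of ATP synthase subunit c encode the same mature protein. *Atp5g3* held 82.6% of their per-kilobase level on average, *Atp5g2* 11.4% and *Atp5g1* 6.0%. *Atp5g3* stood at 920.2, 838 and 817 CPM in control WT, 957, 755 and 875 in AOM-DSS WT, and 935, 1071 and 1149 in AOM-DSS *Cldn2*TG, with every transgenic library above control WT (0.30, SE 0.10, adjusted p = 0.0957). *Atp5g1* stood at 162, 147 and 155 CPM in control WT, 154, 107 and 132 in AOM-DSS WT, and 146, 174 and 183 in AOM-DSS *Cldn2*TG and *Atp5g2* at 94.0, 93.8 and 91.7 CPM in control WT, 103, 85.1 and 95.9 in AOM-DSS WT, and 112, 107 and 91.3 in AOM-DSS *Cldn2*TG, and both overlapped control WT (log2 fold changes 0.12 and 0.16). The ubiquitous *Cox4i1* had 911, 897 and 749.5 CPM in control WT, 1012, 738 and 823 in AOM-DSS WT, and 967, 1081 and 1021 in AOM-DSS *Cldn2*TG, above control WT in every transgenic library (0.27, SE 0.10, adjusted p = 0.125). *Cox6a1* (890.3, 816 and 798, then 803, 561 and 634, then 791, 931 and 936 CPM for the groups in order) and *Cox6b1* (504, 464 and 441, then 456, 344 and 401, then 428, 485 and 496 CPM) overlapped in the third comparison (0.09 and 0.01). The X-linked *Cox7b* stood at 319.5, 309 and 297 CPM in control WT, 337, 219 and 266 in AOM-DSS WT, and 318, 379.9 and 427 in AOM-DSS *Cldn2*TG, also with overlap (0.29, SE 0.11, adjusted p = 0.134).

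Transcript length divided the genes in the first and the third comparison, a split chosen after the values were seen. Of the 93 genes, 53 have a longest coding transcript under 1000 bases and 40 one of 1000 bases or more. The short class had median log2 fold changes of -0.01, 0.29 and 0.26 in the order of the comparisons, and the long class -0.16, 0.30 and 0.12. Protein-coding genes as a whole also differed by this split, with 0.20, 0.08 and 0.24 for the short class and 0.00, 0.00 and -0.02 for the long class. In the third comparison 6 of 48 short OXPHOS genes were called higher against 117 of 654 short protein-coding genes, and 3 of 40 long ones against 405 of 12792. The 6 include *Cox8b*, for which only a rise could be tested. In the first comparison 0 of 48 short OXPHOS genes were called by edgeR (2 at an unadjusted p under 0.05, 0 by DESeq2), against 93 higher and 20 lower of 675 short protein-coding genes (118 and 27 by DESeq2). Of 40 long ones 1 was called higher and 4 lower, against 1079 and 1017 of 13144 long protein-coding genes. RNA quality and fragment size are not given in the sources used here.

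The mitochondrially encoded subunits, read from the other genome that builds these complexes, also differed: of 13 genes 2 rose in the first comparison (5 without R5, 0 without R1, R2, R3, R4 or R6, 0 with lane 2 only, and 1 with upper-quartile scaling, no filter or at least 10 counts in every library), 0 were called in the second (edgeR; 6 at an unadjusted p under 0.05, 3 by DESeq2, 3 without R4) and 11 rose in the third, also without any single library. Their medians were 0.32 (0.49 without R5), 0.39 (0.23 without R5) and 0.81, and *mt-Co1*, with the most reads, had 0.63 (SE 0.18, adjusted p = 0.0494) and 0.99 (SE 0.16, adjusted p = 0.00634) in the first and the third.

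Enzymes of the TCA cycle supply the chain with NADH and succinate. The TCA cycle and pyruvate dehydrogenase list of 16 genes summed to 4844, 4954 and 4891 CPM in control WT, 3804, 3608 and 3479 in AOM-DSS WT, and 4809.8, 4910.4 and 5044 in AOM-DSS *Cldn2*TG. The AOM-DSS WT libraries were the lowest 3, and the other groups overlapped. In the first comparison all 16 fold changes were below 0 (median -0.41) and 9 genes fell, 11 by DESeq2. Of all genes 6.92% were called lower there, 9.51% by DESeq2. In the second all 16 were above 0 without overlap of the groups (median 0.41) and 5 rose, 8 by DESeq2. Of all genes 12.8% were higher without overlap there, 2.19% were called higher, and 3.95% by DESeq2. In the third the median was 0.03 (-0.08 with scaling by library size only) and 0 were called by edgeR or DESeq2, with 1 at an unadjusted p under 0.05 and 1 called without R7. The count of 9 went to 4 without R5, 1 without R6 and 0 without R1, R2 or R3, and the count of 5 to 8 without R4 and 0 without R5, R6, R7, R8 or R9. *Cs*, the citrate synthase gene, with the most reads of the list, stood at 935, 889 and 891 CPM in control WT, 728, 589.7 and 485 in AOM-DSS WT, and 889, 899 and 925 in AOM-DSS *Cldn2*TG and fell by 0.59 in the first comparison (SE 0.16, adjusted p = 0.0421, called only without R4). *Suclg2*, a subunit of succinyl-CoA ligase, stood at 171, 180.3 and 176 CPM in control WT, 127, 123 and 105 in AOM-DSS WT, and 189, 171 and 177 in AOM-DSS *Cldn2*TG. It fell by 0.56 (adjusted p = 0.0187, lost without R1, R2 or R3) and rose by 0.59 in the second comparison (adjusted p = 0.0211, called only without R4). *Suclg1*, its partner, rose by 0.71 there (adjusted p = 0.0256, called only without R4).

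Among 14 regulators of mitochondrial biogenesis, 1 rose and 4 fell in the first comparison, 2 rose in the second and 2 in the third (0 with scaling by library size only), with medians of -0.13, 0.17 and -0.02. *Ppargc1b*, a coactivator of OXPHOS gene transcription, stood at 23.9, 20.1 and 18.2 CPM in control WT, 8.22, 10.3 and 5.78 in AOM-DSS WT, and 18.7, 15.4 and 14.2 in AOM-DSS *Cldn2*TG. It was lowest in all 3 AOM-DSS WT libraries, fell by 1.34 (SE 0.23, adjusted p = 0.0138, lost without R1 or R2) and rose by 0.98 in the second comparison (adjusted p = 0.0365, called only without R4 or R5). *Esrrg*, a nuclear receptor that acts with such coactivators, stood at 14.7, 13.3 and 13.6 CPM in control WT, 7.59, 4.83 and 3.26 in AOM-DSS WT, and 14.3, 12.3 and 10.7 in AOM-DSS *Cldn2*TG. It fell by 1.40 (adjusted p = 0.0209, called only without R4 or R6) and rose by 1.24 (adjusted p = 0.0358, called only without R4). *Esrra*, its relative, with the most reads of the list, stood at 201, 215 and 173 CPM in control WT, 227, 227 and 234 in AOM-DSS WT, and 254, 247 and 277 in AOM-DSS *Cldn2*TG and rose by 0.41 in the third comparison (adjusted p = 0.0322, called only without R2). *Pprc1*, another coactivator, stood at 31.2, 26.7 and 31.0 CPM in control WT, 38.2, 43.2 and 40.5 in AOM-DSS WT, and 38.3, 41.4 and 40.3 in AOM-DSS *Cldn2*TG and rose by 0.46 in the first comparison (adjusted p = 0.0376, called only without R4). Its value in the third was 0.44 (adjusted p = 0.0275, called only without R1 or R7). *Ppargc1a* and *Tfb2m* also fell in the first comparison (-0.87 and -0.65, adjusted p = 0.0208 and 0.0306, called only without R4, and without R3 for *Ppargc1a*).

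Of 43 assembly factors outside the symbol rule, 41 were tested, *Sco2* and *Pet117* were at 0, and *Cox14* had the most reads. In the first comparison *Sdhaf1*, for complex II, rose by 0.81 (adjusted p = 0.0498, called only without R4), and *Cox10*, which makes heme O on the way to the heme A of complex IV, fell by 0.67, from 45.0 ± 2.25 to 28.2 ± 1.99 CPM (mean ± SD, n = 3, adjusted p = 0.0138, lost without R2 or R3). The second and the third comparison gave 0 calls by edgeR, with 7 and 5 at an unadjusted p under 0.05 and 0 and 1 by DESeq2, and 1 call without R4 in the second. Medians were -0.08, 0.13 and 0.08. Of the cytochrome c carriers, *Cyc1*, the heme subunit of complex III, stood at 509, 500.3 and 497 CPM in control WT, 498, 396 and 423 in AOM-DSS WT, and 498, 587 and 589 in AOM-DSS *Cldn2*TG, and together with *Cycs* it gave 0 calls in any comparison by edgeR or DESeq2 (0, 1 and 1 of the 2 at an unadjusted p under 0.05, and 1 called without R4 in the second), with medians of -0.06, 0.32 and 0.26.

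Among 18 genes of mitochondrial carriers, import and cristae, led by *Slc25a5*, 2 fell in the first comparison, 2 rose and 1 fell in the second, and 1 rose and 1 fell in the third, with medians of 0.00, 0.18 and 0.12. *Immt*, the scaffold of cristae junctions, stood at 237, 239 and 225 CPM in control WT, 163, 176 and 168 in AOM-DSS WT, and 225, 229.7 and 225 in AOM-DSS *Cldn2*TG. It fell by 0.46 (adjusted p = 0.0241, called only without R4 or R5) and rose by 0.42 in the second comparison (adjusted p = 0.0426, called only without R4). Its partner *Chchd3* fell by 0.42 and rose by 0.51 (adjusted p = 0.0388 and 0.0297, each called only without R4). *Slc25a4*, the ADP/ATP carrier of muscle and heart, stood at 52.5, 36.5 and 57.2 CPM in control WT, 56.9, 66.2 and 107 in AOM-DSS WT, and 32.2, 30.0 and 25.7 in AOM-DSS *Cldn2*TG. R6 stood highest and the transgenic libraries lowest, and it fell by 1.39 in the second comparison (adjusted p = 0.0125, lost without R8 or R9) and by 0.73 in the third (adjusted p = 0.0239, called only without R2 or R7). *Tomm20*, an import receptor, rose by 0.40 in the third (adjusted p = 0.0231, called only without R7).

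Markers of cell types moved between the same groups. The 8 markers of absorptive colonocytes summed to 8127, 5896 and 5504 CPM in control WT, 5805, 3344 and 2543 in AOM-DSS WT, and 6578, 7886 and 9149 in AOM-DSS *Cldn2*TG. R5 and R6 were lowest and R4 was inside the control range, as it was for summed OXPHOS. *Car4*, with the most reads, stood at 1845, 1613 and 1199.6 CPM in control WT, 733, 458 and 288 in AOM-DSS WT, and 1769, 1682 and 2062 in AOM-DSS *Cldn2*TG. Of the 8, 3 fell in the first comparison (5 without R4, 2 without R6, 1 without R1, R3 or R5, 0 without R2), 2 rose in the second (5 without R4, 1 without R7, 0 without R5, R8 or R9) and 0 were called in the third (edgeR; 1 at an unadjusted p under 0.05, 1 by DESeq2 and 1 without R1). None was at 0 throughout, and medians were -0.75, 1.15 and 0.30. The 6 leukocyte markers, led by *Cd74*, summed to 224, 111 and 313 CPM in control WT, 409, 1877 and 1837 in AOM-DSS WT, and 356, 1016 and 488 in AOM-DSS *Cldn2*TG. R5 and R6 were highest and R4 stayed below R8 and R9. Of the 6, 5 rose in the first comparison (0 without R3, 2 without R2, R5 or R6, 3 without R1), 5 fell in the second (3 without R8) and 0 were called in the third by edgeR, DESeq2 or an unadjusted p under 0.05. The 5 neutrophil markers, led by *S100a9*, summed to 2.08, 51.0 and 28.6 CPM in AOM-DSS WT and to at most 0.818 CPM in any other library. Their part in the OXPHOS differences was not tested.

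The colon list, read for the tissue check, gave 1 lower, 1 higher and 0 calls in the order of the comparisons, the last with 1 at an unadjusted p under 0.05 and 1 by DESeq2. Epithelial genes gave 0, 0 and 2 higher, with 3, 0 and 3 at an unadjusted p under 0.05 and 2, 0 and 2 by DESeq2. Smooth muscle gave 0, 0 and 4 lower, with 2, 0 and 8 at an unadjusted p under 0.05 and 2, 0 and 8 by DESeq2. The 7 pericyte markers, led by *Rgs5*, gave 2, 2 and 4 lower and the 6 fibroblast markers, led by *Col3a1*, 0, 2 and 1 lower, the 0 with 4 higher at an unadjusted p under 0.05 and 3 by DESeq2. Enteric neuron and glia markers, led by *Uchl1*, gave 1, 0 and 5 lower, the 0 with 0 at an unadjusted p under 0.05 and 0 by DESeq2. Neutrophil markers gave 3 higher and 2 lower in the first and second comparisons and were too low to test in the third; they passed the filter on AOM-DSS WT libraries alone, so no other direction was possible. Adipocyte and skeletal muscle markers gave 0 calls by edgeR in all comparisons, with 1, 0 and 0 adipocyte genes and 0, 0 and 1 muscle genes at an unadjusted p under 0.05 and 1 adipocyte gene and 0 muscle genes by DESeq2. Without R4 the first comparison had 6 smooth muscle, 4 neural and 4 fibroblast genes called, with 5 neutrophil genes whose direction the filter again fixed, and without R1, R2 or R3 it had 0 in each of these lists. In the third comparison the smooth muscle count ran from 2 (without R3 or R7) to 7 (without R2), the neural count went down to 2 (without R1, R3 or R9) and the pericyte count to 2 (without R3 or R9), and of the epithelial genes *Krt8* was called only without R7 and *Cldn7* in none of the refits. Without R8 or R9 no colon, pericyte, fibroblast or neutrophil gene was called in the second comparison.

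OXPHOS genes are known to share binding motifs for nuclear respiratory factors in their promoters. RefSeq promoters (build GRCm38.p6, 250 bases before to 50 bases after the start) were found by Entrez gene ID for 76 of the 93 genes, as 81 promoters. Motifs were searched on both strands as fixed letters. The NRF1 motif GCGCATGC was in 14.8% of the 81, against 2.71% of all 32851 promoters in the table, and the ETS (GABPA) motif CCGGAAG in 22.2% against 8.86%. The YY1 motif AAGATGGC was in 13.6% against 2.75%, and the ESRRA motif CAAGGTCA in 4.94% against 1.56%. At least 1 of these was in 36 of the 81 promoters, or 44.4%, against 14.7% of all. The YY1 letters were found in 8 of 40 complex I genes, 3 of 15 complex V genes and in none of the 21 genes with a promoter in complexes II to IV. A match is a description of the letters and not a site, and no match says only that the letters are not in the window. Promoters are printed for 5 genes called in the first or the third comparison that hold a match, with matches in capitals, 5′ to 3′ on the gene's own strand: *Ndufa9* (chr6:126849095-126849394, minus, YY1), *Ndufaf4* (chr4:24897833-24898132, plus, NRF1), *Ndufa6* (chr15:82354242-82354541, minus, NRF1), *Ndufb8* (chr19:44555393-44555692, minus, YY1) and *Atp5l* (chr9:44920693-44920992, minus, NRF1, ETS and ESRRA).
Ndufa9: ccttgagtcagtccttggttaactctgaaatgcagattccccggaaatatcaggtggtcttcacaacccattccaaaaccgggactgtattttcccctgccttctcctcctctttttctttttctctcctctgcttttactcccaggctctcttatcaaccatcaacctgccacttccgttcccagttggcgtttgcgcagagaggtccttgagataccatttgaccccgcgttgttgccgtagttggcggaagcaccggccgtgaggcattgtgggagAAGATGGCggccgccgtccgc
Ndufaf4: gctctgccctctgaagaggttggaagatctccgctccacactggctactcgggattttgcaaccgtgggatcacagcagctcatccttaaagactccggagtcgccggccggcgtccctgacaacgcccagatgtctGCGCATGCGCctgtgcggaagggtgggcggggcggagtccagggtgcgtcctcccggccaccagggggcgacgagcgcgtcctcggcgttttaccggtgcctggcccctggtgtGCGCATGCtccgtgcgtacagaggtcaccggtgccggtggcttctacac
Ndufa6: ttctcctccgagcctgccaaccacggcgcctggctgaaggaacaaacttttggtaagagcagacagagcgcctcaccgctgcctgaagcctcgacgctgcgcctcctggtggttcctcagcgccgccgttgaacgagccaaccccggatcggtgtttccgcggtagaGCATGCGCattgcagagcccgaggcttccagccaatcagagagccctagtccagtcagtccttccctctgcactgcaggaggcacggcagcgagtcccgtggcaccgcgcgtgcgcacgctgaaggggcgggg
Ndufb8: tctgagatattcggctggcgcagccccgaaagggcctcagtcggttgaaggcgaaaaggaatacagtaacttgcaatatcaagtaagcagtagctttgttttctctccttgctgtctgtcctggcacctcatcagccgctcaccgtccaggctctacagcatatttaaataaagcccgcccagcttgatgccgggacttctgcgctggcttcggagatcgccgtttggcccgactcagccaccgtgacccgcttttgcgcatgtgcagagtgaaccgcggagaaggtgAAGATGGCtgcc
Atp5l: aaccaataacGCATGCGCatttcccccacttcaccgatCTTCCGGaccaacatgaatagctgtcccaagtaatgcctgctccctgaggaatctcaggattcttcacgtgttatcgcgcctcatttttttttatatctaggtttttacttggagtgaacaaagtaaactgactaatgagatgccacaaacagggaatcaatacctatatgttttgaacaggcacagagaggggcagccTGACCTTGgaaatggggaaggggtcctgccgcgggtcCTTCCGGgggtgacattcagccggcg

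Near-copies limit some of the counts, since neither the strand setting nor the handling of reads with several matches is given in the sources used here. A copy of at least 95% identity over at least 200 bases lies in another gene for 21 of the 93 genes, in a pseudogene for 20. The copies hold at least 5% as many counts as the gene itself for 5 genes: *Ndufab1* (10.8%), *Ndufs5* (9.67%), *Ndufs3* (8.87%), *Cox5b* (8.74%) and *Atp5l* (5.18%). Exons overlap those of another gene over at least 10% of their bases for 10 genes, which makes these counts uncertain too, with *Ndufb6* (39.0%) and *Cox5a* (38.7%) at the top.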

How the data were processed

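The deposited counts of reads per gene (no normalization) were used as the authors made them, for 18 lane columns of 9 libraries and 47729 genes. The submitters' processing notes name HISAT2, featureCounts, Subread and GRCm38 without versions, whereas the study's methods name TopHat2 for alignment. Strand and multimapping settings are not given in the sources used here. Lanes of a library differed by close to sampling noise (chi-square per degree of freedom 0.995 to 1.06, highest in R6) and were added up. Libraries of a group differed by 16.8 to 66.3 and none was a repeat. Symbols and biotypes came from GENCODE vM21, which holds 47310 of the 47729 IDs.

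Each comparison was fitted on its 6 libraries with edgeR 4.0.16 in R 4.3.3: TMM scaling, filterByExpr (minimum count 10, minimum total 15), robust quasi-likelihood fit, two-sided test, Benjamini-Hochberg adjustment over 15437, 14888 and 15013 genes, and a threshold of 0.05. Standard errors were the log2 fold change divided by the square root of F. CPM used TMM over all 9 libraries. Members under the filter were *Cox4i2*, *Cox6a2*, *Cox7b2* and *Cox8c* in all comparisons, *Cox8b* in the first 2 and *Ndufa4l2* in the last 2. The steps were tested on simulated data. Alternatives were DESeq2 1.42.0, library size only, upper-quartile scaling, no filter, at least 10 counts in every library, all 9 libraries in the fit, each lane alone and each library left out. Lane 2 was much shallower than lane 1 in R6 (4023472 against 10119239 counts), R7 (5757674 against 9143133) and R9 (4811928 against 10060059). Fits with lane 2 only therefore also differ in depth between libraries. Summaries and permutation tests used Python 3.11.15 with pandas 2.3.3 and numpy 2.4.6, and the chi-square values of lanes and libraries used scipy 1.17.1. Figures used matplotlib 3.10.9 and the search for copies blastn 2.17.0.

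The members and gene lists were chosen with earlier results of these data known. Named genes were, by rule, the most abundant per kilobase of each complex, up to 5 called genes with the largest fold change per direction and comparison (or the 3 with the smallest p where fewer than 3 were called), isoform pairs, catalytic core subunits, and from each list the most abundant and up to 2 called genes per comparison. *Ndufa5*, *Ndufb8*, *Cox7c*, *Atp5l*, *Ndufa12*, *Ndufs5*, *Atp5s*, *Ppargc1a*, *Tfb2m*, *Car4*, *Ndufc2*, *Ucp1*, *Cldn7*, the class of complex I core subunits and the length classes were chosen after their values were seen. Floors and intervals cover counting error only.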

Additional observations from a re-analysis of the deposited data

How the results depend on the processing

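The medians of OXPHOS log2 fold changes kept their sign under every alternative run. Over the fits that left out 1 library they ran from -0.17 to -0.01 (without R5), from 0.17 (without R5) to 0.36 and from 0.15 to 0.25, and the last moved to 0.077 with scaling by library size only. Counts of genes called moved more. In AOM-DSS WT against control WT, 5 became 9 with DESeq2, 3 with lane 2 only and 12 at an unadjusted p under 0.05, and ran from 0 to 16 when each library was left out in turn. In AOM-DSS *Cldn2*TG against AOM-DSS WT, 0 became 9 with DESeq2, 12 with all 9 libraries in the fit, 1 with lane 1 only and 29 at an unadjusted p under 0.05, and ran from 0 to 20. In AOM-DSS *Cldn2*TG against control WT, 9 became 2 with library size only, 15 with no filter, 1 with all 9 libraries in the fit and 40 at an unadjusted p under 0.05, and ran from 0 to 16. Other alternatives stayed within 1.5 times of the count. Calls over all genes moved as well. Without R4 they went from 15.0% to 25.7% in the first comparison and from 9.54% to 19.2% in the second. With all 9 libraries in the fit they were 13.6% in the second and 2.83% in the third. Over 10 named genes and all alternatives, 89 of 137 values kept the call, 48 did not and 0 changed sign. The tally includes *Cox8b*, for which only a rise could be tested and which is also among the 9 calls of the last comparison. *Cox8b* kept the call in 5 of 6 fits without 1 library and in 5 of 5 other alternatives. Of the 10, calls were lost for 4 with all 9 libraries in the fit, 3 with library size only, 2 with lane 2 only and 1 with no filter. Fits without 1 library hold 5 libraries, and the cause of the changes was not tested. No paired analysis was possible because the groups share no replicate numbers.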
